A study of Mus musculus with 31 samples.

Results

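The circadian clock genes described here are the 10 genes Clock, Cry1, Cry2, Per1, Per2, Per3, Rora, Nr1d1, Bhlhe41 and Dbp, chosen by name out of 21631 protein-coding genes on the autosomes and the X chromosome, and all 10 were found in the RefSeq annotation. Trimethylation of histone H3 at lysine 4 (H3K4me3), a mark of active promoters, was measured at them by chromatin immunoprecipitation and sequencing of hippocampus from C57BL6 mice at 30 days of age. The 4 groups were KMT2D+/+ (wild type) and KMT2D+/bGeo (heterozygote) mice, each given either TAK-418 by gavage at 1 mg/kg/day, or its methylcellulose vehicle, for 2 weeks from 2 weeks of age. TAK-418 blocks LSD1, an enzyme that removes methyl groups from H3K4. Each group had 4 H3K4me3 libraries, 1 per mouse. A heterozygote carries 1 copy of Kmt2d, which encodes an H3K4 methyltransferase, with a bGeo insertion. The time of day at which the tissue was taken was not given in the sources used here. Hippocampus holds several cell types, so fewer cells with a marked gene and less of the mark per cell cannot be told apart.

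The mammalian clock is a feedback loop of transcription. CLOCK pairs with BMAL1, the product of Arntl, to bind E-boxes and switch on the Per and Cry genes, whose products then repress that pair. A second loop sets ROR activators, among them the product of Rora, against the repressor REV-ERB alpha, the product of Nr1d1, at ROR elements. Bhlhe41 (DEC2) encodes a repressor that competes for E-boxes, and Dbp encodes a clock-driven activator that binds D-boxes. These genes also cycle in brain regions outside the master clock of the suprachiasmatic nucleus, the hippocampus among them.

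The promoters of the 4 genes with listed regions at an end in the comparisons below are shown first. They are those of Clock, Rora and Cry1, where regions were listed as lower in heterozygotes, and that of Bhlhe41, where a region was listed as higher with TAK-418. The listed regions themselves lay downstream of the sequences shown, apart from at most 58 bases at Clock. Each sequence is the 250 bases before the annotated start site, 5′ to 3′ on the strand of the gene, from the RefSeq table of build GRCm38.p6. Capitals mark the letters of the E-box CACGTG or of its variant CACGTT, on either strand.
Clock (chr5:76304793-76305042, minus strand): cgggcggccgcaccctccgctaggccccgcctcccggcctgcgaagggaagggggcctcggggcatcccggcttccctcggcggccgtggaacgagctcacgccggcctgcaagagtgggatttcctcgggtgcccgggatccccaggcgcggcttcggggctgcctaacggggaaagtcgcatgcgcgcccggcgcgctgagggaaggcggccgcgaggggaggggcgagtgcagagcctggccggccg
Rora (chr9:68653536-68653785, plus strand): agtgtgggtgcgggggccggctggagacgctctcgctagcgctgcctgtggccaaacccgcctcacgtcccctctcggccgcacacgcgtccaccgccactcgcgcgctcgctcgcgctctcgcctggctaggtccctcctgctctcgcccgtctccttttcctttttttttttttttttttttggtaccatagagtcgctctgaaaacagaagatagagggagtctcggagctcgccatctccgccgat
Cry1 (chr10:85185055-85185304, minus strand): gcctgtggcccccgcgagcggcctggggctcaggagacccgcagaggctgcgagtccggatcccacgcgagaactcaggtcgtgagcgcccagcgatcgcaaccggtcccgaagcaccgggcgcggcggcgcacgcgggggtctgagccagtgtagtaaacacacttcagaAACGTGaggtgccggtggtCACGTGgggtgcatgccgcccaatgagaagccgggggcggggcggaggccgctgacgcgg
Bhlhe41 (chr6:145865421-145865670, minus strand): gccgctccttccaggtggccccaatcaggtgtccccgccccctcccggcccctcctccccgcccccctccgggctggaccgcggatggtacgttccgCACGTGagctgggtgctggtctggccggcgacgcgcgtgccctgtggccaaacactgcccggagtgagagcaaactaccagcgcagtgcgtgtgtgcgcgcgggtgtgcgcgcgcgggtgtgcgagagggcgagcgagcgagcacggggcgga

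The 12 promoters that the table holds for 9 of these genes (none for Per2) were searched on both strands for the E-box CACGTG and its variant CACGTT, and for the cAMP response element TGACGTCA, the D-box TTATGTAA and the ROR element TAGGTCA. The E-box CACGTG was found before the start sites of Cry1 at 60 bases, Bhlhe41 at 153 bases and Per1 at 166 bases. It was thus in 3 of 12 promoters (3 of 9 genes), beside 6.02% of all 32851 promoters of the same length. CACGTT was found as its reverse complement at Cry1, Cry2 and Nr1d1, beside 3.85% of all promoters, and no match overlapped another. The D-box occurred in the Per3 promoter at 205 and 158 bases before the start site, beside 0.819% of all promoters. TGACGTCA and TAGGTCA were in none of the 12 windows, and were in 1.55% and 2.23% of all promoters. The promoters of Clock and Rora shown above held none of these 5 motifs in these windows. Most member promoters were rich in G and C, with 49.2% to 77.6% and a median of 66.4%, against a median of 52.4% over all promoters. The lowest value was at 1 of the 3 Clock promoters, and Per1 entered with 2.

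Every one of the 10 clock genes carried an H3K4me3 peak at an end (within 2 kb of the start or the stop of the gene) in 4 of the 16 libraries, and in few of the others. These 4 libraries, 1 in each group, had 13343 to 16750 peaks and are called the long lists. Their peaks lay at the ends of 55.7% to 60.8% of protein-coding genes. The other 12 libraries, the short lists, had 302 to 2281 peaks, at the ends of 0.227% to 9.03% of genes. In the short lists 4 of 120 pairs of gene and library had a peak, 3.33%, beside 1.93% over all genes. Of these, 3 were in wild type vehicle replicate 2, the longest of the short lists, at Cry2, Per3 and Bhlhe41. The other was at Clock in wild type TAK-418 replicate 1. Of the 10 genes, 6 had peaks in the 4 long lists alone, as did 7909 genes in all, and 11247 genes (52.0%) had a peak in all 4 long lists.

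**Figure D1:**
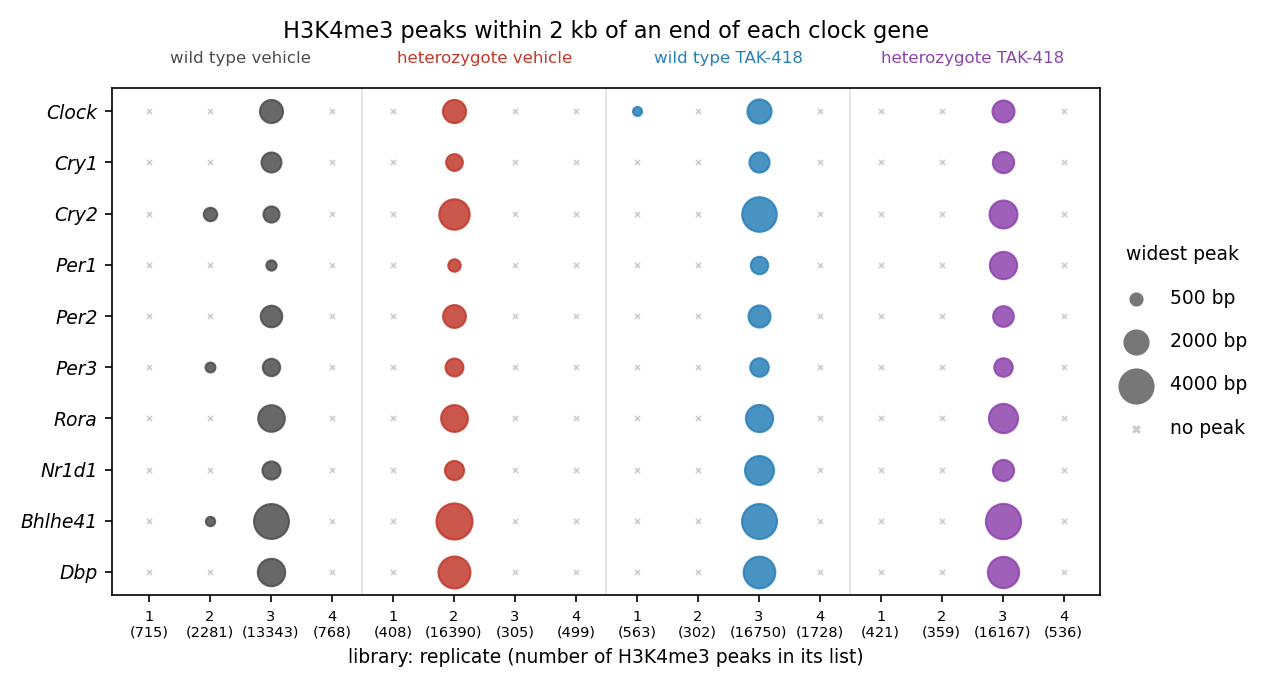
H3K4me3 peaks at each clock gene (rows) in the 16 libraries (columns, with the replicate and the number of peaks in its list). The area of a circle is proportional to the width of the widest peak within 2 kb of a gene end, and a cross marks no peak. All 10 genes have a peak in 1 library per group, the one with 13343 to 16750 peaks, and 4 other peaks appear among the remaining 12 libraries.

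Whether a gene had a peak was compared between groups with a two-sided Fisher's exact test, with Benjamini-Hochberg adjustment over the 11413 to 11915 genes tested. No gene was called in any of the 4 comparisons (0%), 0 had an unadjusted p under 0.05, and the smallest p was 0.143. The 10 clock genes each had an exact p of 1. With 4 against 4 libraries the test had little room to pass adjustment over so many genes. Each group had 1 long list, so list length fixed the result at genes with peaks in the long lists alone. The test therefore says nothing of the mark at such genes. In the long lists 3 to 5 of 5 neuron markers, 2 of 3 oligodendrocyte markers, 0 to 2 of 3 astrocyte markers, 0 to 1 of 3 microglia markers, 0 to 1 of 3 blood markers and 0 of 3 genes of liver, heart and pancreas had a peak at an end. At the ends of these 10 genes, 0 of 15 libraries for H3K4me1, the monomethyl mark of enhancers, had a peak. Those lists held 88 to 456 peaks, at the ends of 0.0740% to 0.300% of all protein-coding genes. The lack of a peak at 10 genes therefore says nothing particular of them.

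Clock, which encodes the activator of the core loop, had one of the 2 highest folds of the 10 genes in each long list. At Clock (chromosome 5, 76209868 to 76305603, minus strand; NCBI gene 12753), the peak over the first annotated start site was 1836 bp wide in the long list of wild type vehicle, 1854 bp in heterozygote vehicle, 2009 bp in wild type TAK-418 and 1670 bp in heterozygote TAK-418. Its fold enrichment over the local background, the authors' own value, was 7.88, 6.50, 9.95 and 8.07 in the same order. These folds stood at the 91.7 to 95.9 percentile of marked gene ends in their own libraries. The widths differed little between the 4 libraries (1842 ± 139 bp, mean ± SD over 4 libraries of different groups).

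The Cry genes encode cryptochromes, the repressors that act on CLOCK. Cry1 (chromosome 10, 85131700 to 85185054, minus strand; NCBI gene 12952) had a peak of 1376 bp in wild type vehicle, 969 bp in heterozygote vehicle, 1396 bp in wild type TAK-418 and 1567 bp in heterozygote TAK-418. Its fold was 5.37, 6.16, 8.66 and 9.14 in that order, so both TAK-418 libraries lay above both vehicle libraries, with 1 library per group and no replicate check. The median fold over all marked gene ends was likewise higher in both TAK-418 libraries, at 5.54, 4.36, 6.40 and 6.20 in the same order. Relative to these medians Cry1 stood at 0.969, 1.41, 1.35 and 1.47, with heterozygote vehicle above wild type TAK-418.

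Cry2 (chromosome 2, 92403646 to 92434085, minus strand; NCBI gene 12953) had a start-site peak whose width differed between the long lists. It measured 894 bp in wild type vehicle, 3190 bp in heterozygote vehicle, 4132 bp in wild type TAK-418 and 2698 bp in heterozygote TAK-418. In the wild type vehicle library a separate peak of 553 bp lay inside the gene, 2162 to 2714 bp downstream of the start site, within the stretch that the single peak covered in 2 of the other 3 libraries or reached in the third.

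The Per genes encode the period proteins, partners of the cryptochromes. Per1 (chromosome 11, 69095108 to 69109965, plus strand; NCBI gene 18626) had 2 annotated start sites, both more than 3 kb inside the gene end. A peak covered the first of them (69098949) in all 4 long lists, with a width of 613 bp in wild type vehicle, 1714 bp in heterozygote vehicle, 1320 bp in wild type TAK-418 and 1960 bp in heterozygote TAK-418. Its fold of 3.52, 3.21, 4.65 and 5.24 was low, at the 3.97 to 25.3 percentile of gene ends in their libraries. The widest peak at the upstream gene end itself was another one, 362 to 2576 bp wide, and did not reach that start site in any long list.

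Per2 (chromosome 1, 91415977 to 91459351; NCBI gene 18627) had a peak over its upper end of 1185 bp in wild type vehicle, 1188 bp in heterozygote vehicle, 1598 bp in wild type TAK-418 and 1476 bp in heterozygote TAK-418. The fold was 5.53, 7.65, 4.77 and 6.36, with the heterozygote vehicle library at the 99.2 percentile and the wild type TAK-418 library at the 21.3 percentile. A further peak within 2 kb of the lower end of Per2 covered an end of the neighbouring gene Hes6 in 3 of the 4 long lists, and cannot be assigned to Per2. Per3 (chromosome 4, 150997018 to 151044707, minus strand; NCBI gene 18628) had a narrow peak of similar width in the long lists, 1039, 1105, 1193 and 1183 bp wide in the order given for Per2, with folds of 4.70, 4.48, 5.97 and 5.87. It lay about evenly around the start site, from 483 to 559 bp upstream to 503 to 709 bp downstream, and also covered an end of the gene model Gm38529.

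In the second loop, Rora (chromosome 9, 68653404 to 69388246, plus strand; NCBI gene 19883) had a start-site peak of 2439 bp in wild type vehicle, 2478 bp in heterozygote vehicle, 2554 bp in wild type TAK-418 and 2942 bp in heterozygote TAK-418. These widths stood at the 93.1 to 96.1 percentile, while the folds of 5.51, 4.14, 5.05 and 5.59 stood at the 25.6 to 49.3 percentile. Rora is a gene of 734843 bp, and a peak of 1711 to 1839 bp also lay deep inside it in all 4 long lists, about 636 kb from that start site. The fold of this inner peak was 5.88, 5.62, 8.64 and 6.20, higher than that of the start-site peak in each of the 4 libraries. Nr1d1 (chromosome 11, 98767932 to 98775377, minus strand; NCBI gene 217166) had a peak of 1131, 1261, 2898 and 1542 bp in the same order of libraries, with folds of 4.54, 3.20, 4.46 and 5.95. This peak ran almost entirely downstream, reaching at most 58 bp upstream of the start site, and in heterozygote TAK-418 it began 183 bp downstream of it.

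Bhlhe41 (chromosome 6, 145858243 to 145865420, minus strand; NCBI gene 79362) had the widest peak of the 10 genes in each of the 4 long lists. It measured 4209 bp in wild type vehicle, 4505 bp in heterozygote vehicle, 4233 bp in wild type TAK-418 and 4289 bp in heterozygote TAK-418, at the 99.1 to 99.7 percentile of marked gene ends. It spanned from 1305 to 1674 bp upstream of the start site to 2761 to 2983 bp downstream. Dbp (chromosome 7, 45705100 to 45710203, plus strand; NCBI gene 13170) also had a wide peak, of 2590, 3532, 3470 and 3376 bp in the same order, at the 96.8 to 99.1 percentile, on a gene of 5104 bp. In 2 of the 4 libraries the Dbp peak also covered an end of Car11.

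Over the 10 genes, peaks were wide rather than strongly enriched. The peak at the start was wider than the library's median gene end at 8, 9, 10 and 10 of 10 genes (wild type vehicle, heterozygote vehicle, wild type TAK-418 and heterozygote TAK-418). Its fold was above the library's median at 2, 5, 3 and 5 of 10 genes. The median width of the 10 was 1281, 1784, 2282 and 1815 bp, against 950, 998, 1142 and 1134 bp over all marked gene ends, for which the widest peak of a gene was taken. With 1 long list per group these widths have no replicate check, and no difference between groups was tested on them.

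**Figure D2:**
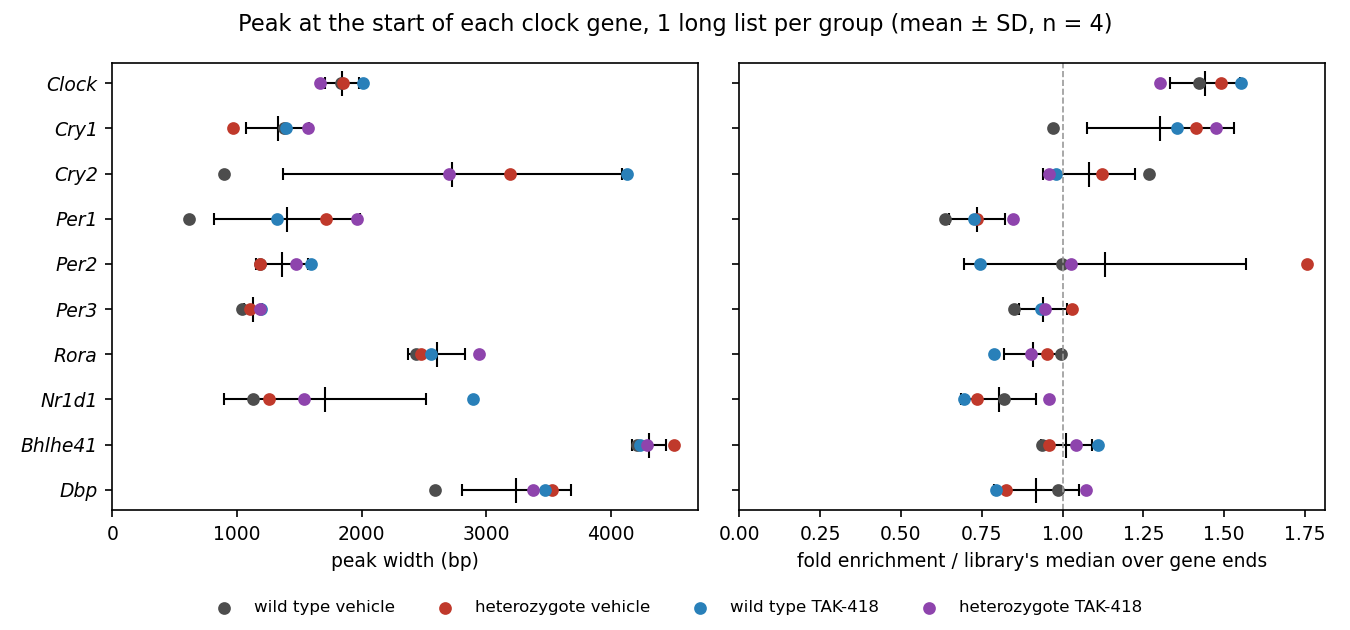
Width in bp (left) and fold enrichment divided by the library's median over all marked gene ends (right) of the peak at the first start site of each clock gene, or at the upper end for Per2. Points are the 4 long lists, coloured by group, and bars are the mean ± SD over these 4 libraries. Bhlhe41 is widest in all 4, at 4209 to 4505 bp, and the fold of Clock is above the library median in all 4.

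The authors' lists of H3K4me3 differences were then searched for regions at the 10 genes. Each list gives 1 normalized whole-number score per library, 4 per group, without naming the library. The lists hold regions that the authors selected by a p on the same libraries, they share groups with one another, and the scores of one group differ between lists. Values are therefore compared within a list only. Each region was tested with limma on log2(score + 1) over all regions of its list, with Benjamini-Hochberg adjustment over that list, and with a two-sided exact permutation test, whose smallest p for 4 against 4 is 0.0286. At every one of the 9 listed regions at member ends the scores of both groups overlapped, and none passed limma at an adjusted p of 0.05.

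In heterozygote against wild type vehicle mice, which asks what the loss of 1 Kmt2d copy does, 3 of 10 clock genes had a region listed as lower, Clock, Rora and Cry1, and 0 of 10 had one listed as higher, so 30% and 0%. Among all protein-coding genes 7.04% had a region listed as lower, and 11% of the 13809 genes with a peak at an end in a long list. A region listed as higher was found at 0.356% of all genes and 0.55% of those with a peak. The list of 2015 regions was itself uneven, with 86% lower and 14% higher in heterozygotes. Limma called none of them after adjustment (0%), and 82 (4.07%) had an unadjusted p under 0.05. The groups did not overlap at 2.03% of regions.

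At Clock the region (chromosome 5, 76303851 to 76304800), from 8 bp upstream to 941 bp downstream of the first start site, had scores of 100, 132, 385 and 230 in wild type and 155, 247, 160 and 106 in heterozygote vehicle mice. The highest 1 of the 8 scores was in a wild type, and so was the lowest. The means were 212 ± 128 and 167 ± 58.6 (SD, n = 4 per group), a log2 difference of −0.21 with an SE of 0.63 (limma adjusted p = 0.808, exact permutation p = 0.743). The direction rested on 1 score, since without the wild type score of 385 the difference was 0.14.

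At Rora the region (chromosome 9, 68654001 to 68654300), 215 to 514 bp downstream of the start site, had scores of 28, 59, 97 and 93 in wild type and 35, 87, 53 and 0 in heterozygote vehicle mice. The 2 highest wild type scores lay above all heterozygote scores and 1 heterozygote score was 0. The means were 69.3 ± 32.4 and 43.8 ± 36.3 (SD, n = 4), and the log2 difference was −1.64 with an SE of 1.12 (limma adjusted p = 0.575, exact permutation p = 0.4). Without the score of 0 the log2 difference was −0.19.

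At Cry1 the region (chromosome 10, 85184401 to 85184650), 404 to 653 bp downstream of the start site, had scores of 47, 23, 63 and 49 in wild type and 25, 49, 21 and 18 in heterozygote vehicle mice. Of the heterozygote scores 3 of 4 were at most 25, and 3 of 4 wild type scores were at least 47. The means were 45.5 ± 16.6 and 28.3 ± 14.1 (SD, n = 4), a log2 difference of −0.69 with an SE of 0.61 (limma adjusted p = 0.583, exact permutation p = 0.2).

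In heterozygotes given TAK-418 against those given vehicle, 1 of 10 clock genes had a listed region, again Clock, listed as lower (10%), and 0 of 10 had one listed as higher. Such a region was listed as lower at 2.15% of all protein-coding genes and at 3.36% of those with a peak in a long list, and as higher at 2.22% and 3.45%. The region (chromosome 5, 76304201 to 76304750) had scores of 124, 184, 155 and 95 with vehicle and 55, 25, 264 and 59 with TAK-418. With TAK-418, 3 of 4 scores lay below all vehicle scores and the other above all of them. The means were 140 ± 38.5 and 101 ± 110 (SD, n = 4), with a log2 difference of −0.98 and an SE of 0.86 (limma adjusted p = 0.691, exact permutation p = 0.229). Of the 1715 regions in the list 31.5% were lower and 68.5% higher with TAK-418. Limma called none (0%), 17 (0.991%) had an unadjusted p under 0.05, and the groups did not overlap at 0.35%.

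In wild types given TAK-418 against vehicle, 2 of 10 clock genes had a region listed as lower, Clock and Rora (20%), beside 4.45% of all genes and 6.96% of those with a peak in a long list. Of the 10, 1 gene, Bhlhe41 (10%), had a region listed as higher, beside 5.94% and 9.29%. Of the 2780 regions in the list 36.4% were lower and 63.6% higher. Limma called none (0%), 66 (2.37%) had an unadjusted p under 0.05, and the groups did not overlap at 0.54%.

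The Bhlhe41 region (chromosome 6, 145862801 to 145863750) lay inside the gene, 1670 to 2619 bp downstream of the start site, in the downstream part of the wide peak. Its scores were 96, 132, 261 and 100 with vehicle and 175, 211, 397 and 233 with TAK-418. Of the vehicle scores 3 of 4 lay below all TAK-418 scores. The means were 147 ± 77.5 and 254 ± 98.3 (SD, n = 4), 1.72 times higher with TAK-418, with a log2 difference of 0.84 and an SE of 0.72 (limma adjusted p = 0.779, exact permutation p = 0.114). Overlapping regions were in both other lists with TAK-418 mice, just outside the 2 kb limit at 2120 and 2070 bp from the gene end, and were listed as higher there too. In heterozygotes the scores were 69, 74, 40 and 42 with vehicle and 109, 28, 107 and 76 with TAK-418 (56.3 ± 17.7 and 80.0 ± 37.8, SD, n = 4, exact permutation p = 0.4). Against wild type vehicle, treated heterozygotes had 127, 39, 126 and 93 beside 42, 63, 82 and 43 (exact permutation p = 0.229). In each of these 2 lists the lowest of the 8 scores belonged to a TAK-418 mouse, as did the 3 highest.

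In the same wild type comparison the Clock region (chromosome 5, 76304301 to 76304750) had scores of 77, 110, 291 and 100 with vehicle and 46, 43, 265 and 78 with TAK-418. Each group had 1 high score and 3 low ones. The means were 145 ± 98.6 and 108 ± 106 (SD, n = 4), a log2 difference of −0.64 with an SE of 0.76 (limma adjusted p = 0.779, exact permutation p = 0.457). The Rora region (chromosome 9, 68653951 to 68654350) had 43, 86, 161 and 139 with vehicle and 28, 48, 138 and 67 with TAK-418, a log2 difference of −0.67 with an SE of 0.74 (limma adjusted p = 0.779, exact permutation p = 0.314). The inner Rora peak pointed in opposite directions in the treatment lists. It was listed as higher with TAK-418 in wild types, with 56, 111, 187 and 25 against 50, 155, 227 and 78 (vehicle first), and as lower in heterozygotes, with 15, 143, 63 and 69 against 12, 25, 94 and 54. Both had an exact permutation p of 0.514, and the difference between the genotypes was not tested.

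In treated heterozygotes against untreated wild types, which differ in both genotype and treatment, 2 of 10 clock genes had a region listed as lower, Clock and Rora (20%), and 0 of 10 had one at an end listed as higher. The background was 9.21% of all genes and 14.4% of those with a peak in a long list for lower, and 0.758% and 1.17% for higher. The Clock region (chromosome 5, 76303951 to 76304850) had scores of 124, 160, 472 and 263 in wild types and 123, 61, 431 and 123 in treated heterozygotes, with means of 255 ± 156 and 185 ± 167 (SD, n = 4; log2 difference −0.65, SE 0.87, limma adjusted p = 0.620, exact permutation p = 0.343). The Rora region (chromosome 9, 68653951 to 68654350) had 43, 86, 154 and 137 against 30, 37, 157 and 49 (log2 difference −0.78, SE 0.87, limma adjusted p = 0.613, exact permutation p = 0.314). At both genes 1 treated heterozygote stood far above the other 3. Limma gave the Clock and Rora regions of this list the same SE, a value shared across regions. It therefore does not measure the spread at either gene. The list of 2722 regions was 72.4% lower and 27.6% higher. Limma called 8 of them (0.294%), none at these genes, 174 (6.39%) had an unadjusted p under 0.05, and the groups did not overlap at 0.404%. The exact permutation test, whose smallest p is 0.0286, called none of them after adjustment (0%).

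**Figure D3:**
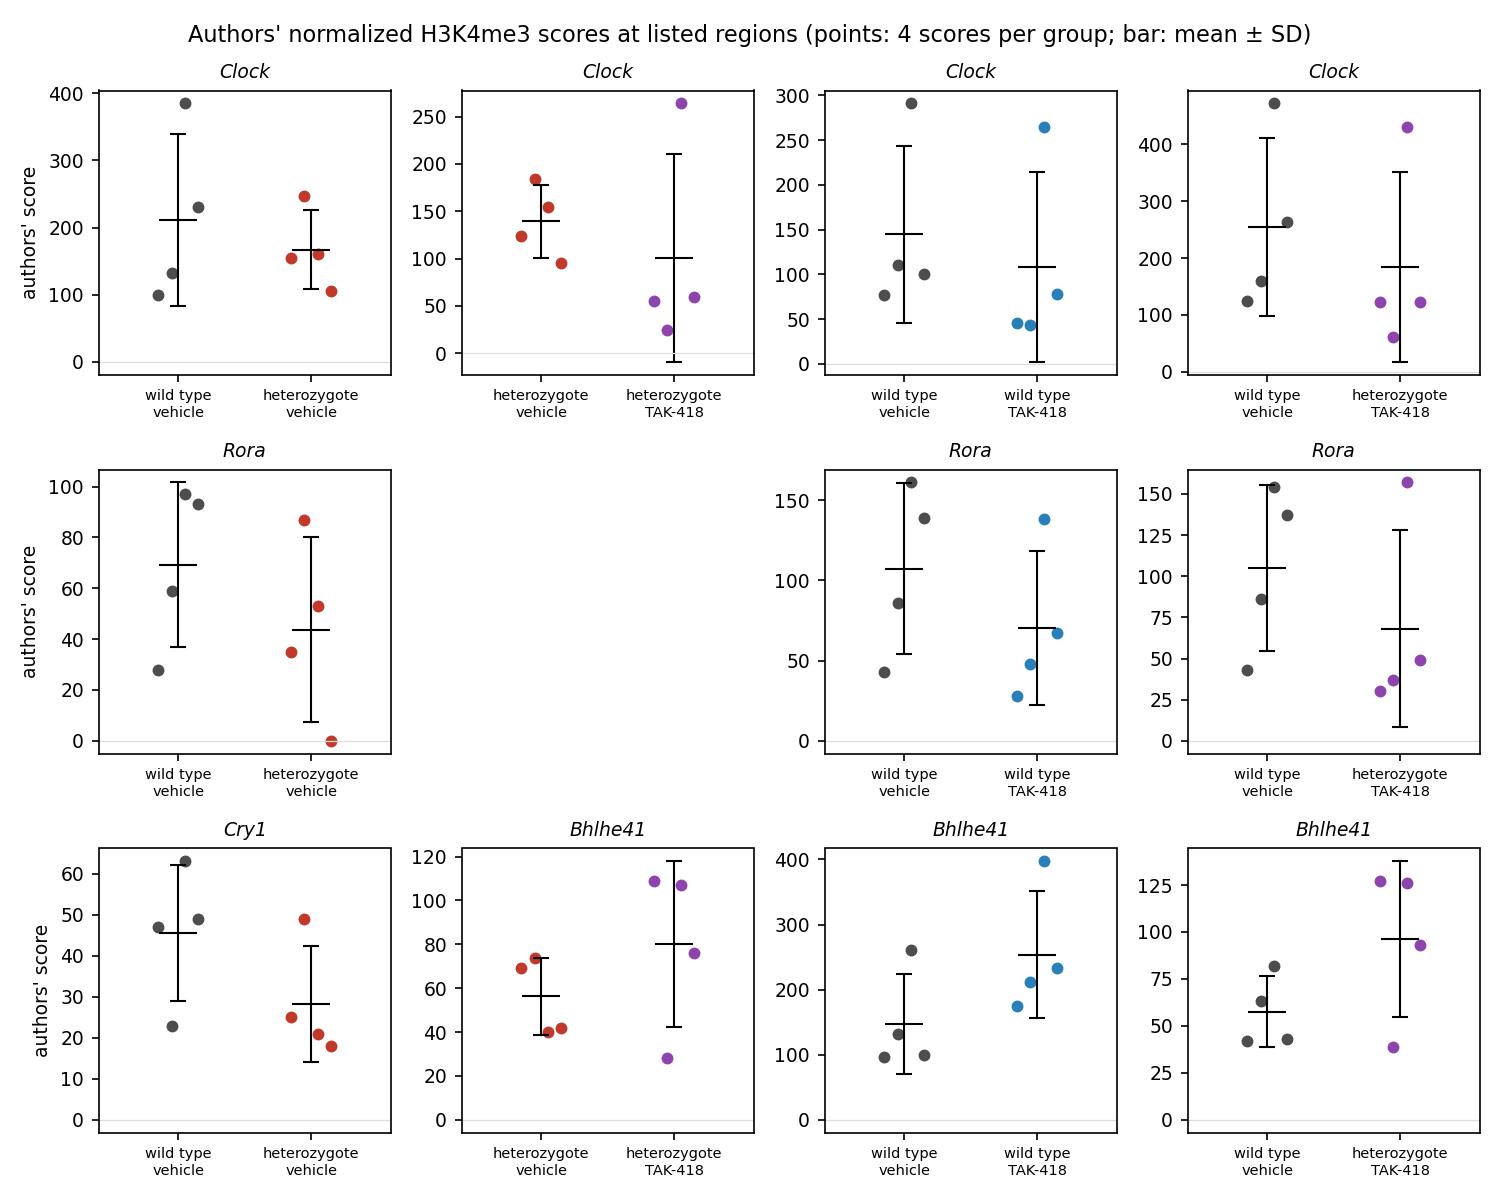
The authors' normalized H3K4me3 scores at the listed regions of Clock (top), Rora (middle), Cry1 and Bhlhe41 (bottom), with 1 panel per list, 4 points per group and bars for the mean ± SD. Columns are, from the left, the comparison of genotypes, of treated with untreated heterozygotes, of treated with untreated wild types, and of treated heterozygotes with untreated wild types, and the ranges of both groups overlap in every panel.

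All 9 regions lay within the start-site peak in each of the 4 long lists and none reached more than 58 bp upstream of a first start site. The Clock, Rora and Cry1 regions were within 941 bp downstream of it, and the Bhlhe41 region was further downstream. The median log2 difference over all regions was −0.72, 0.57, 0.32 and −0.78 in the 4 lists (genotype, treated heterozygotes, treated wild types, and treated heterozygotes against untreated wild types). The difference at Clock was −0.21, −0.98, −0.64 and −0.65 in that order.

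**Figure D4:**
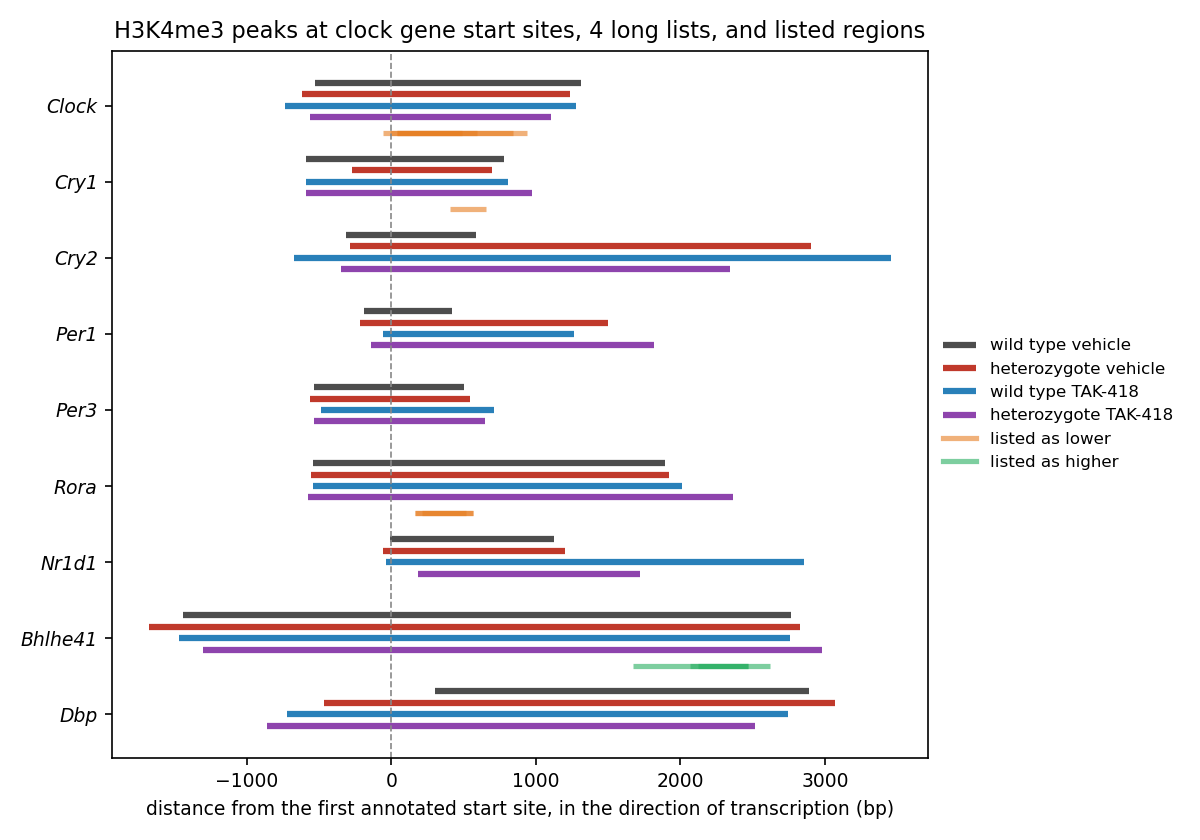
Extent of the H3K4me3 peak nearest the first annotated start site of 9 clock genes (Per2 has no start site in the table) in the 4 long lists, in bp along the direction of transcription, with the regions of the authors' lists below the peaks. Listed regions at Clock, Cry1 and Rora lie within 941 bp downstream of the start site, and those at Bhlhe41 lie 1670 to 2619 bp downstream.

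Within 50 kb of a member, or inside one, but more than 2 kb from its ends, the lists held 5, 2, 6 and 5 further regions in the same order of comparisons. Most lay nearer to another gene, and those near Clock, Cry1, Per2 and Per3 that recurred between lists lay at Tmem165, Tmem263, Ilkap and Vamp3. All 5 of the genotype list were lower in heterozygotes, at 0.442 to 0.681 times the wild type mean. Of all 2015 regions in that list 86% were lower, so this direction is not particular to these regions.

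Of 18 other genes of the clock, 13 had a peak at an end in all 4 long lists, beside 52.0% of all protein-coding genes. Arntl, the partner gene of Clock, had none in any library within 2 kb of its annotated ends, nor did Csnk1e, for a casein kinase that phosphorylates period proteins. As at Per1, the window leaves out start sites deeper in a gene. Arntl2 and Fbxl21 had one in 3 long lists. These 4 genes were named after their values were seen. Peaks in short lists occurred at 5 of the 18, Npas2, Hlf, Nfil3, Csnk1d and Btrc. All were in wild type vehicle replicate 2 or wild type TAK-418 replicate 4. These were the short lists with the most peaks (2281 and 1728), at the ends of 9.03% and 5.99% of all genes. None of the 18 had a listed region in heterozygote against wild type vehicle mice (0%) or with TAK-418 in heterozygotes (0%). Of all genes, 7.04% and 2.15% had a region listed as lower in these lists, and 0.356% and 2.22% one listed as higher. With TAK-418 in wild types a region was listed as higher at 5.94% of all genes and 9.29% of those with a long-list peak. Of the 18, 3 genes (16.7%) were listed as higher. These were Npas2, which encodes a relative of CLOCK (63, 165, 168 and 61 with vehicle, 152, 77, 324 and 95 with TAK-418), Csnk1d, for another casein kinase (64, 124, 185 and 105, then 105, 128, 346 and 63), and Fbxw11, for an F-box protein that targets period proteins (66, 59, 169 and 30, then 135, 31, 307 and 94). Npas2 was listed as lower in treated heterozygotes against wild types (1 of 18, 5.56%), with 93, 240, 182 and 109 in wild types and 19, 37, 276 and 124 in treated heterozygotes. The share listed as lower there was 9.21% of all genes and 14.4% of those with a long-list peak. Groups overlapped at each of these 4 regions and none passed limma.

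By the log2 of the highest fold at an end over the 16 libraries, the non-members most like the mean of the 10 genes were Fam229b, Tube1, Mfsd4b4, Prpf18 and Fbxo44 (Pearson r of 0.988 for each). All genes share the lengths of the 16 lists, and 59.9% of the 13827 genes with a peak in any library had an r above 0.95.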

How the data were processed

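H3K4me3 and H3K4me1 ChIP-seq libraries of hippocampus (31 from 16 mice) were analysed from the deposited files. The submitters' processing notes name mm10, MACS2, MACS and bedtools, without versions or roles. The aligner and the control library are not given in the sources used here. Per the file layout, each library's deposited broad peaks carry a fold enrichment (a ratio) and −log10 p and q values of the authors. The deposited lists of differences hold a −log10 p of at least 1.3 and a score per library, whose normalization and tool are not stated. No file gives read counts, so depth is unknown. The libraries of a mark came from separate mice, per the labels.

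Gene positions, start sites and promoters came from RefSeq (GRCm38.p6, the same assembly). Peaks and regions within 2 kb of either gene end were assigned to a gene. Group sizes were 4 against 4. Limma 3.58.1 in R 4.3.3 was fitted to log2(score + 1) of all regions of a list. The code was also run on simulated scores with large changes in regions not selected by a p. That run does not show how the fit performs on these lists. Exact tests used Python 3.11.15 with numpy 2.4.6 and scipy 1.17.1. Alternatives were the pseudocount, a filter on low scores, exact permutation, leaving out each score, the window, and stricter thresholds. The 4 lists whose names give no mark were not used. The genes and lists were chosen with earlier results of these data known; all 10 members are named, other clock genes where they had a listed region or a peak in a short list, and 5 genes by their pattern. Arntl, Csnk1e, Arntl2 and Fbxl21 fall outside that rule and were named after their values were seen. The result for 1 other clock gene is not reported here.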

Additional observations from a re-analysis of the deposited data

Results flagged for a closer look

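Of 26 groups of 4 values examined, 8 had 1 value set far apart from the other 3. The cutoff used gives about 1 in 20 groups by chance when groups are independent and their values normally distributed. These groups reuse the same libraries and overlapping regions across lists, so the 8 cannot be set against that rate. For the number of clock genes with an H3K4me3 peak at an end, 1 library had 10 of 10 in heterozygote vehicle (0, 0 and 0 in the others), in wild type TAK-418 (0, 0 and 1) and in heterozygote TAK-418 (0, 0 and 0). These are the libraries with long lists. In wild type vehicle the 4 libraries had 0, 0, 3 and 10.

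At Clock 1 score stood apart in heterozygote TAK-418 mice (264, with the others at 25 to 59) in the comparison with heterozygote vehicle, and (431, with the others at 61 to 123) in the comparison with wild type vehicle. In wild types 1 vehicle score of 291 (others 77 to 110) and 1 TAK-418 score of 265 (others 43 to 78) stood apart at the same gene. At Rora 1 heterozygote TAK-418 score of 157 (others 30 to 49) stood apart in the comparison with wild type vehicle. The lists do not name the library of a score, so whether these are the libraries with long lists was not tested.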

How the results depend on the processing

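No listed region at a clock gene passed limma at an adjusted p of 0.05 under any alternative run (smallest 0.133 when 1 score was left out), and neither did one by the exact permutation test. The exact permutation test used the difference of the main fit, so it was no check of direction. The direction of the 9 regions held in every limma refit but 1. The exception was Clock in heterozygote against wild type vehicle mice, where leaving out 1 score at a time gave −0.51 to 0.14, and the positive value came without the third wild type score. Sizes moved more than signs. Leaving out 1 score gave log2 differences of −1.62 to −0.50 for Clock with TAK-418 in heterozygotes, −1.21 to −0.24 for Clock and −1.07 to −0.32 for Rora with TAK-418 in wild types, and −1.19 to −0.25 for Clock and −1.29 to −0.51 for Rora in treated heterozygotes against wild types. It gave −2.34 to −0.19 for Rora and −0.98 to −0.51 for Cry1 between genotypes, and 0.60 to 1.15 for Bhlhe41 with TAK-418 in wild types. The Cry1 region fell under the filter on a mean score of 50 and has no value there. The number of clock genes with a listed region moved most with a stricter threshold: at an authors' −log10 p of at least 2 it was 0 for genotype (3 at the deposited threshold), 0 for TAK-418 in heterozygotes (1), 1 for TAK-418 in wild types (3; Bhlhe41) and 2 for treated heterozygotes against wild types (2). A window of 1 kb gave 2 for TAK-418 in wild types, leaving out Bhlhe41, the only clock gene listed as higher at an end, and left the other counts at 3, 1 and 2. A window of 5 kb gave 4 for genotype, adding Per2, 2 for TAK-418 in heterozygotes and 3 for treated heterozygotes against wild types, both adding Bhlhe41, and 3 for TAK-418 in wild types. Measuring from annotated start sites, chosen after seeing the data, left all 4 counts at 3, 1, 3 and 2. Without the longest list of each group, the peak presence test has a smallest p of 0.1 and holds none of the 10 genes, so it says nothing of them. No paired analysis was possible because the labels give no replicate numbers that groups share. Depth is unknown, and 12 of 16 H3K4me3 lists are too short to show most promoters, so the absence of a peak there does not show the absence of the mark.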
